A study of Mus musculus with 12 samples.

Results

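The genes described here are the apoptosis regulator families that were measured on mouse cDNA arrays: BCL2-like and BNIP proteins, caspases, inhibitor of apoptosis proteins (IAPs), mitochondrial factors, the adaptor FADD, TRAF proteins and genes named for programmed cell death (Pdcd). The rule uses symbols: it takes genes whose probes carry exactly 1 symbol of these families and leaves out 2 genes by name. The choice gave 34 genes of 8708 named genes, read by 56 of 20736 probes. Of the 34 genes, 18 had several probes, which were averaged, and 16 had 1 probe. Bcl2, Bax, Bak1, Casp8, Xiap and Cflar are not analysed here.

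RNA was hybridised in 2 colours against RNA of B6 mice, and every value is a log2 ratio to B6, so that 0 means equal signal in both channels. Each of the 6 groups has 2 arrays. NOD mice, which develop autoimmune diabetes spontaneously, gave spleen T cells. NOD.H2h4 mice, which have the NOD background with the MHC haplotype H2h4, gave spleen T cells. B6.NODIdd1,5 mice are congenic: they have the B6 background with the NOD forms of the diabetes intervals Idd1, on chromosome 17, and Idd5, on chromosome 1. They gave spleen T cells and, as a further group, kidney cells, which were set against B6 kidney. The remaining groups are spleen T cells of marrow recipients: NODtoB6 is NOD marrow in B6 mice and B6toNOD is B6 marrow in NOD mice, both set against B6 T cells. The share of recipient cells left in these mice, the age and sex of the mice, any sort of the T cells and the bounds of the Idd intervals are unstated in the sources used here, and the arrays of a group are not stated to come from separate animals. The labels put the experimental RNA in Cy5 and B6 in Cy3 for the strain arrays. They give no dyes for the 4 transfer arrays, whose direction was assumed to be the same; with the opposite dyes, every sign in NODtoB6 and B6toNOD and in the difference between them would turn.

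Apoptosis runs by an intrinsic and an extrinsic route. In the intrinsic route, BCL2-like proteins decide whether the outer mitochondrial membrane is opened; cytochrome c then leaves the mitochondrion and helps to assemble the apoptosome, which activates caspase 9 and through it the executioner caspases, while IAPs restrain signalling and caspases and are countered by Diablo. In the extrinsic route, death receptors bind FADD, and TRAF proteins and cIAPs pass signals of the TNF receptor family on to NF-kappaB. T cells depend on these proteins for their survival in the periphery and for the removal of cells after activation, and NOD T cells have long been studied for resistance to apoptosis.

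Each array was centred on its own median, which lay between -0.88 and -0.01 as deposited. For genes near 0 that centring sets the sign. Calls of members that turn without it are named in the passage on each gene and listed at the end. The arrays had between 18837 and 20558 probes with a value per array, and the arrays of a group correlated over the members at r = 0.53 (B6toNOD) to 0.87 (NOD.H2h4). Ratios carry no level, so the labelled tissues cannot be checked against their own markers. Marker genes of other cells did differ from B6. Of 4 myeloid markers (S100a9, Lyz2, Lcn2, Ltf), 4 were higher in NOD, 4 in NODtoB6 and 4 in B6toNOD, 3 were higher and 1 lower in NOD.H2h4, 1 was higher and 3 lower in the B6.NODIdd1,5 T cells, and 1 was higher and 1 lower in kidney. S100a9 itself ranged from -1.25 in the B6.NODIdd1,5 T cells to 6.68 in B6toNOD. Of 4 erythroid markers (Hbb-b1, Hbb-bh1, Alas2, Slc4a1), 3 were higher in NOD and 3 in NODtoB6, 2 of the 3 tested were higher in NOD.H2h4 and 2 of 3 in B6toNOD, 4 were lower in the B6.NODIdd1,5 T cells and 0 were called in kidney. Hbb-b1 ranged from -1.20 in the B6.NODIdd1,5 T cells to 3.31 in NOD. B cell markers were few: Cd79b was lower in B6toNOD (-2.04) and Blk was lower in NOD.H2h4 (-1.44) and in NODtoB6 (-1.40). Of 3 T cell markers on the array (Cd4, Cd28, Cd247), both that could be tested in the B6.NODIdd1,5 T cells were lower, Cd28 at -1.39 and Cd247 at -1.23. Cd28 was also lower in kidney (-1.17) and NOD.H2h4 (-0.58), higher in NOD (0.59) and NODtoB6 (0.61), and not called in B6toNOD (0.19); Cd4 was called in no group, and Cd247 in no other. Of 3 kidney tubule markers (Umod, Lrp2, Slc12a1), 2 were higher in kidney (Umod at 1.01 and Lrp2 at 0.88), 3 were lower in NOD.H2h4, 1 was higher and 1 lower in the B6.NODIdd1,5 T cells, and 1 was lower in B6toNOD (Lrp2 at -1.05). The part that these other cells have in the results was not tested, and in such samples fewer cells of a type and less RNA per cell cannot be told apart.

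Against B6, the apoptosis regulators were called about as often as other features of the arrays in 5 of the 6 groups, and in NOD none was called. A call is an adjusted p under 0.05 in limma, fitted over all features and adjusted by the Benjamini-Hochberg method. Shares of all features are given for this fit only. Counts of members under other settings therefore do not tell a change of the members from a change of the whole array. In NOD T cells 0 of 34 members were called, where 12.4% of all features and 7.98% of named genes were, and 4 members had an unadjusted p under 0.05. Whether 0 is fewer than the share of named genes was not tested. Their largest values in NOD were 0.53 for Bnip3l and -0.65 for Pdcd5-ps. The count in NOD was 8 (6 higher and 2 lower) with arrays scaled to one spread, 1 without either NODtoB6 array and 2 without either B6toNOD array.

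In NOD.H2h4 T cells 12 of 34 members were called (5 higher, 7 lower), beside 39.7% of features (24.2% higher, 15.5% lower); the split was 0 higher and 21 lower without centring. In the B6.NODIdd1,5 T cells 11 of 31 were called (4 higher, 7 lower), beside 30.9% of features (14.9% higher, 16.1% lower); the split was 0 and 11 without centring. Kidney cells of the same congenic mice had 9 of 33 called (6 higher, 3 lower), beside 33.9% (22.6% higher, 11.3% lower); without centring the split was 1 and 9. NODtoB6 had 8 of 33 called (3 higher, 5 lower), beside 27.4% (14.1% higher, 13.4% lower), and 0 and 6 without centring. B6toNOD had 14 of 30 called (9 higher, 5 lower), beside 51.9% (28.7% higher, 23.2% lower), and 2 and 20 without centring. The members' shares, from 24.2% in NODtoB6 to 46.7% in B6toNOD, were near the background in these 5 groups. Among named genes alone the background was 7.98% in NOD, 34.2% in NOD.H2h4, 25.9% in NODtoB6, 48.4% in B6toNOD, 29.5% in the B6.NODIdd1,5 T cells and 26.5% in kidney. The median log2 ratio of the members was 0.04 in NOD, -0.17 in NOD.H2h4, 0.09 in NODtoB6, -0.22 in B6toNOD, -0.11 in the B6.NODIdd1,5 T cells and -0.03 in kidney, where the median of all features tested lay between -0.04 and 0.01.

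**Figure D1:**
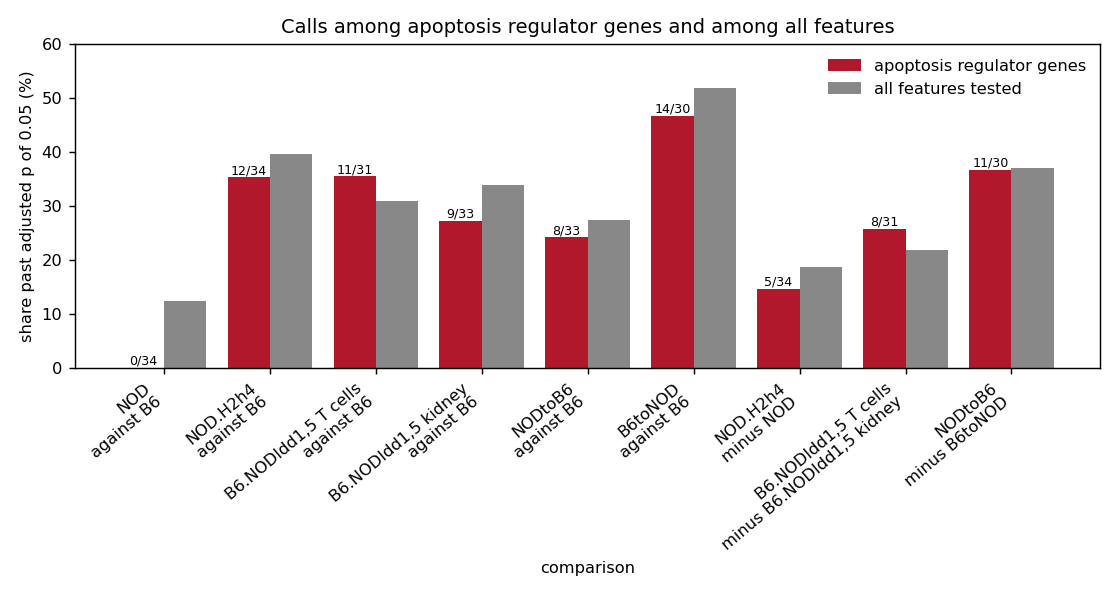
Share of apoptosis regulator genes (red) and of all features tested (grey) past an adjusted p of 0.05, in percent, for the 6 groups against B6 and for 3 differences between groups; the numbers over the red bars are called and tested genes. The red and grey bars lie close together apart from NOD, at 0 of 34 genes beside 12.4% (7.98% of named genes alone, not drawn).

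Over the 6 groups, 26 of the 34 members were called at least once against B6 and 8 never were: Bik, Birc6, Casp14, Diablo, Pdcd5-ps, Pdcd6ip, Traf3ip1 and Traf6. Of these 8, Pdcd6ip and Traf3ip1 were called with another choice of probes, as given below. The share of all features called at least once was not counted, so 26 of 34 is no result about these families. Pdcd4 was the member called in the most groups, 5 of 6: higher in NOD.H2h4 and both congenic tissues and, on the assumed direction, in both transfers. Without centring Pdcd4 turned to -0.42 in NOD.H2h4 and in B6toNOD. With 2 arrays a group, leaving out 1 array leaves the value of the other as the group's value, and this ended calls in several groups. The count of called members went from 12 to 7 without either NOD.H2h4 array, from 11 to 6 or 5 without array 1 or 2 of the B6.NODIdd1,5 T cells, and from 9 to 3 or 5 without kidney array 1 or 2. In NODtoB6 it went from 8 to 5 without its array 1 or without either NOD.H2h4 array, and in B6toNOD it stayed between 12 and 17.

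**Figure D2:**
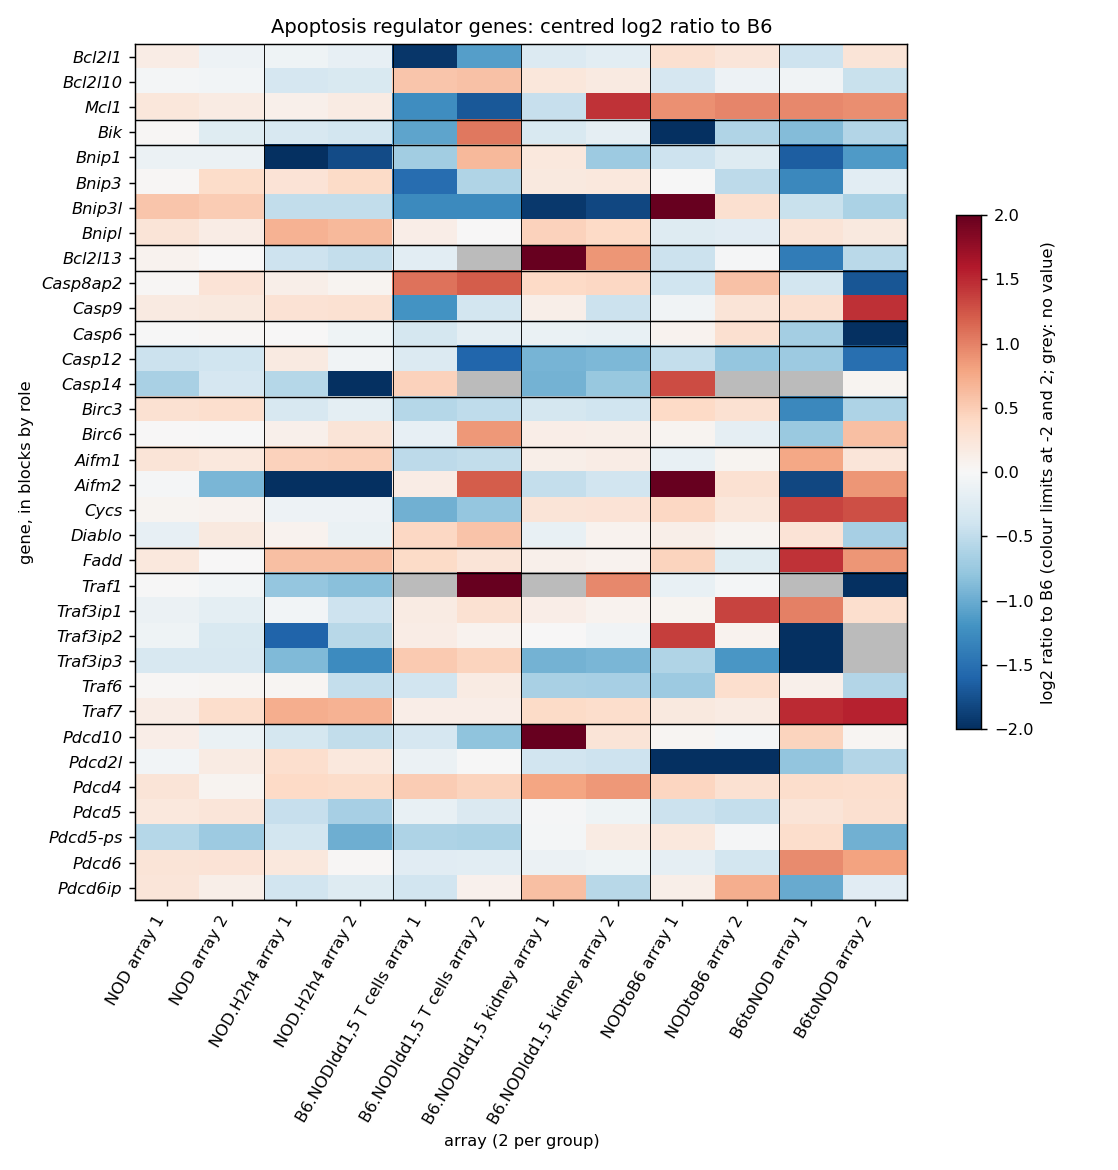
Centred log2 ratio to B6 of the 34 genes (rows, in blocks by role) on the 12 arrays (columns, 2 per group); red is higher than B6, blue lower, grey no value, with colour limits at -2 and 2. The rows of Pdcd4 and Traf7 are above 0 on all 12 arrays, that of Casp12 is below 0 on 11 (8, 8 and 7 of the 8 strain arrays, without the transfers), and Bcl2l1, Mcl1 and Cycs turn blue in the B6.NODIdd1,5 T cells. Before centring, Pdcd4 is above 0 on 7 arrays and Traf7 on 5.

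The anti-apoptotic BCL2 family had 3 measured members, and the clearest values lay in the B6.NODIdd1,5 T cells. Bcl2l1 encodes Bcl-xL, which keeps the mitochondrial membrane closed. Its ratios in these T cells were -1.94 and -1.10, a fall by 1.52 ± 0.21 (standard error of the fit, as in all that follows), or 2.86-fold (adjusted p = 0.00163), and the call held without each of the 12 arrays in turn. In the other groups its values were 0.15 and -0.10 in NOD, -0.09 and -0.16 in NOD.H2h4, -0.27 and -0.21 in kidney, 0.31 and 0.24 in NODtoB6, and -0.41 and 0.26 in B6toNOD. None of these was called, and all 10 lie above both congenic T cell arrays. In the same congenic T cells the T cell markers Cd28 and Cd247 were lower as well, at -1.39 and -1.23, and their part in the values of Bcl2l1 and the other members there was not tested.

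Mcl1, a short-lived survival protein that T cells require, was also lower in the B6.NODIdd1,5 T cells. Its ratios there were -1.24 and -1.69, a difference of -1.47 ± 0.36 (2.76-fold lower, adjusted p = 0.0198); the call was lost without either array of the group (adjusted p at most 0.155 over the 12 fits). It was not called elsewhere, with 0.22 and 0.16 in NOD, 0.10 and 0.17 in NOD.H2h4, -0.45 and 1.45 in kidney, 0.92 and 0.98 in NODtoB6, and 0.96 and 0.93 in B6toNOD. Its 3 probes did not move together. The third probe read 1.45 and 1.34 in NOD.H2h4, where the other two were between -0.78 and -0.19, and on kidney array 2 it alone read 5.09. It has no value on array 1 of the congenic T cells, where array 2 read -3.04.

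With genes averaged only over probes that have a value on all 12 arrays, an alternative chosen after seeing the data, Mcl1 rests on its first 2 probes and its spread is smaller. On that reading Mcl1 was called lower in the B6.NODIdd1,5 T cells (-1.11 ± 0.07, adjusted p = 3.51e-05), in NOD.H2h4 (-0.60, adjusted p = 0.00043) and in kidney (-0.42, adjusted p = 0.00299). It was called higher in NODtoB6 (0.82, adjusted p = 0.000273) and in B6toNOD (1.31, adjusted p = 6.09e-06), and was 0.13 in NOD (adjusted p = 0.314). In NOD.H2h4, kidney and both transfers, the call of Mcl1 therefore depended on whether the third probe was averaged in.

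Bcl2l10, a further BCL2 relative best known from the ovary, went the other way in the congenic T cells. It read 0.55 and 0.59 there (0.57 ± 0.10, adjusted p = 0.00435), lost without centring (0.39, adjusted p = 0.131). In NOD.H2h4 it read -0.34 and -0.30 (-0.32 ± 0.10, adjusted p = 0.0381), and that call was lost with 8 of the 12 arrays left out in turn, those of the 4 strain groups (adjusted p at most 0.225), and with arrays scaled to one spread (-0.26, adjusted p = 0.0683).

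Of the 7 members called lower in the B6.NODIdd1,5 T cells, the promoters of 4 are shown: Bcl2l1, Mcl1, Cycs and Bnip3. The other 3 were Birc3, Casp12 and Aifm1. The 4 were picked after their values and the motif matches in the 250 bases before the start were seen. The sequences come from RefSeq's mouse genome (GRCm38.p6), 5′ to 3′ on the strand of the gene, with matches in capitals: Cycs lies on the minus strand at chr6:50566570-50566819, Bnip3 on the minus strand at chr7:138909507-138909756, Bcl2l1 on the minus strand at chr2:152830718-152830967, and Mcl1 on the plus strand at chr3:95658471-95658720.
Cycs: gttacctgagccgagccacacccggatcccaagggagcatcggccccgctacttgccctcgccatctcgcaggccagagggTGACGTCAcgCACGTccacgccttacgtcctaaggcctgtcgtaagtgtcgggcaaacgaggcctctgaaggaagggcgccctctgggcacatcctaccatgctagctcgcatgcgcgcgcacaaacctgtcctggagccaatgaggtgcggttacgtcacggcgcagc
Bnip3: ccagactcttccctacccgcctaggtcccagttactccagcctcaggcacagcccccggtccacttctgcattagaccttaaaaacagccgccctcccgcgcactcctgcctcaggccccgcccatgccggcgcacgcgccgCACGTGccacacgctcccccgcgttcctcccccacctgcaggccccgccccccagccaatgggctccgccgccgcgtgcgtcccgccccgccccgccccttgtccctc
Bcl2l1: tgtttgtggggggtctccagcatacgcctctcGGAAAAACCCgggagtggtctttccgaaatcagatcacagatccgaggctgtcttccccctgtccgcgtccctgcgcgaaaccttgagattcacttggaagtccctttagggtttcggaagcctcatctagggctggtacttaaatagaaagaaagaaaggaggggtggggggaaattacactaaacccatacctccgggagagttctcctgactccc
Mcl1: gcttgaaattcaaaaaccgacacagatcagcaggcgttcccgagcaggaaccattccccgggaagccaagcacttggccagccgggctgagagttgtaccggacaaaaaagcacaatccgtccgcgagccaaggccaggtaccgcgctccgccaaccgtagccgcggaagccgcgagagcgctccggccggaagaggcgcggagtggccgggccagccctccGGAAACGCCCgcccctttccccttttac
The motifs searched on both strands were the cAMP response element TGACGTCA (CRE), the hypoxia response element core ACGTG, and a kappaB-like pattern spelled GGG, any 3 bases, TTCC. Cycs holds 1 CRE and, next to it, 1 ACGTG core. Bnip3, known as a target of the hypoxia-inducible factor, holds 2 cores that overlap as the palindrome CACGTG. Bcl2l1 and Mcl1 hold 1 kappaB-like match each. Of the 3 windows listed for Bcl2l1, the window with the most motif matches is shown, and the others are not described here. Of all 32851 windows of this length, 1.55% hold the CRE, 16.6% the ACGTG core and 4.65% the kappaB-like pattern. Of the 28 members with a window, 1, 9 and 3 hold these motifs. A member counts if any of its windows holds a match, which raises its share over one counted by single windows, so the 2 cannot be compared. A match describes these letters and is no binding site by itself.

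The BH3-only gene Bik and the mitophagy-linked Bcl2l13 stood apart from the survival genes. Bik was called in no group, with fitted values from -1.60 to 0.00. Bcl2l13 was higher in kidney, with 2.34 and 0.88 (1.61 ± 0.35, adjusted p = 0.0137). That value comes from 1 of its 2 probes, which read 4.87 and 1.57, while the other read -0.19 and 0.19, and the call was lost without kidney array 1 (adjusted p at most 0.125).

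Bnip3 and Bnip3l are receptors that mark mitochondria for removal. Bnip3 was lower in the B6.NODIdd1,5 T cells, at -1.52 and -0.60 (-1.06 ± 0.29, adjusted p = 0.0283), and lost its call without array 1 of that group (adjusted p at most 0.3). Bnip3l read -1.93 and -1.83 in kidney (-1.88 ± 0.47, adjusted p = 0.0184) and 2.85 and 0.32 in NODtoB6 (1.58 ± 0.47, adjusted p = 0.0427). Both calls rest on 1 of its 2 probes, which read -3.80 and -3.53 in kidney and 5.30 on NODtoB6 array 1, with no value on array 2. On the other probe alone they were -0.17 (adjusted p = 0.273) and 0.35 (adjusted p = 0.0506). That probe alone also gave lower calls in NOD.H2h4 (-0.76, adjusted p = 0.00119) and the B6.NODIdd1,5 T cells (-0.45, adjusted p = 0.0181). The kidney call was also lost without either kidney array, and that in NODtoB6 without 9 of the 12 arrays, the 8 strain arrays and NODtoB6 array 1 (adjusted p at most 0.0697).

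Bnip1, a SNARE protein of the endoplasmic reticulum, was lower in NOD.H2h4 and in B6toNOD. In NOD.H2h4 it read -2.44 and -1.78 (-2.11 ± 0.35, 4.32-fold lower, adjusted p = 0.00227), in each of the 12 fits with 1 array left out. There 1 probe read -4.86 and -3.32 and the other -0.02 and -0.25. In B6toNOD, where both probes were low, it read -1.65 and -1.14 (-1.39 ± 0.34, adjusted p = 0.0116), lost without B6toNOD array 1 (adjusted p at most 0.11).

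Bnipl, a relative of BNIP2, was higher in 3 groups and lower in 1. It read 0.70 and 0.65 in NOD.H2h4 (0.67 ± 0.07, adjusted p = 0.000251), 0.47 and 0.39 in kidney (0.43 ± 0.07, adjusted p = 0.00262) and 0.26 and 0.19 in B6toNOD (0.22 ± 0.07, adjusted p = 0.0254), all of which turn below 0 without centring (-0.13, -0.03 and -0.54). In NODtoB6 it read -0.26 and -0.23 (-0.25 ± 0.07, adjusted p = 0.0337). The NOD.H2h4 call held without each array, that in kidney was lost without kidney array 1 (adjusted p at most 0.0544) and that in B6toNOD without either of its arrays (at most 0.135). The NODtoB6 call was lost without either NODtoB6, NOD.H2h4 or kidney array (at most 0.149).

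Casp9, the initiator that the apoptosome activates, read 0.32 and 1.46 in B6toNOD (0.89 ± 0.29, adjusted p = 0.0351). Its 2 probes lay on both sides of 0 there, at -0.94 on array 1 and at 1.58 and 1.46, and the call was lost without B6toNOD array 2 or any NOD or NOD.H2h4 array (adjusted p at most 0.427). Elsewhere Casp9 was not called: 0.17 and 0.19 in NOD, 0.28 and 0.30 in NOD.H2h4, -1.19 and -0.37 in the B6.NODIdd1,5 T cells, 0.12 and -0.42 in kidney, -0.06 and 0.26 in NODtoB6. The arrays of both congenic tissues do not average the same probes: 1 probe has no value on T cell array 2 and kidney array 1. That probe read -2.37 on T cell array 1 and -1.08 on kidney array 2. Casp6, an executioner caspase, read -0.67 and -2.64 in B6toNOD (-1.66 ± 0.37, 3.16-fold lower, adjusted p = 0.00745), a call that held without each array, while its other 10 arrays lay between -0.35 and 0.32.

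Casp8ap2, a nuclear protein of histone mRNA processing first found as a partner of caspase 8, was called in opposite directions. In B6toNOD both of its probes were low, and it read -0.37 and -1.72 (-1.04 ± 0.32, adjusted p = 0.0265), lost without B6toNOD array 2 (adjusted p at most 0.345). In the B6.NODIdd1,5 T cells it read 1.09 and 1.20 (1.15 ± 0.32, adjusted p = 0.0294), from 1 probe at 2.62 and 2.86 while the other was at -0.45 on both arrays. That call was lost without either array of the group or of kidney (adjusted p at most 0.161), and it turned to -0.44 (adjusted p = 0.245) over probes with a value on all 12 arrays.

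Casp12, a caspase of the endoplasmic reticulum, was below the array median on 11 of 12 arrays (7 of the 8 strain arrays, and 7 of 12 with the transfers turned) and, as deposited, below 0 on 12 of 12. It was called lower in B6toNOD at -0.72 and -1.51 (-1.12 ± 0.29, adjusted p = 0.0153), in the B6.NODIdd1,5 T cells at -0.28 and -1.58 (-0.93 ± 0.29, adjusted p = 0.0479) and in kidney at -0.93 and -0.89 (-0.91 ± 0.29, adjusted p = 0.0485). NOD (-0.43 and -0.40), NODtoB6 (-0.47 and -0.77) and NOD.H2h4 (0.18 and -0.08) were not called. The congenic T cell call was lost without 9 of the 12 arrays, all but array 1 of that group and the B6toNOD arrays (adjusted p at most 0.516). The kidney call was lost without 8 arrays, those of NOD, NOD.H2h4, kidney and NODtoB6 (at most 0.25), and the B6toNOD call without its array 2 (at most 0.173). Casp14, a caspase of the epidermis, had values on 9 arrays, from -2.28 to 1.30, and was not called in the 3 groups where it could be tested.

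Birc3 encodes cIAP2, a ubiquitin ligase at TNF receptor complexes, and its ratios split the 2 marrow transfers. It read -1.28 and -0.62 in B6toNOD (-0.95 ± 0.14, 1.93-fold lower, adjusted p = 0.000903), with both probes low and the call kept without each array. In NODtoB6 it read 0.40 and 0.30 and was not called; there its probes lay at 1.02 and 0.98 and at -0.22 and -0.39. Birc3 was also lower in the B6.NODIdd1,5 T cells, at -0.57 and -0.51 (-0.54 ± 0.14, adjusted p = 0.0221), lost without either array of the group (adjusted p at most 0.138). In NOD it read 0.31 and 0.34, in NOD.H2h4 -0.32 and -0.20 and in kidney -0.36 and -0.39, none of them called. Birc6, a giant ubiquitin-conjugating IAP, was called in no group: its fitted values reached 0.35 at most, and its 2 probe means lay on both sides of 0 in each group but the congenic T cells.

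Cycs, cytochrome c, had the lowest adjusted p of the mitochondrial factors, in both directions. In B6toNOD it read 1.36 and 1.28 (1.32 ± 0.07, 2.49-fold higher, adjusted p = 1.01e-05), and in the B6.NODIdd1,5 T cells -0.96 and -0.77 (-0.86 ± 0.07, 1.82-fold lower, adjusted p = 0.000194). Its 2 probes lay on one side in both groups, and both calls held without each array. It was also called higher in NODtoB6 at 0.41 and 0.23 (0.32 ± 0.08, adjusted p = 0.0194; 0.09 without centring, and lost without NODtoB6 array 1, at most 0.15). In kidney it read 0.25 and 0.28 (0.27 ± 0.08, adjusted p = 0.0309), which turned to -0.19 without centring and was lost without either kidney or NOD.H2h4 array (at most 0.216). NOD (0.05 and 0.07) and NOD.H2h4 (-0.11 and -0.10) were not called.

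Diablo, which releases caspases from IAPs, was called in no group, with array values from -0.66 to 0.58. Its 2 probes opposed each other in NODtoB6, at 0.768 and 0.83 and at -0.535 and -0.713, so the mean describes neither. In the B6.NODIdd1,5 T cells 1 probe read 0.83 and 1.17 and the other -0.01 and -0.02. Aifm1, a flavoprotein of the mitochondrial intermembrane space that can move to the nucleus, was called in 3 groups, but its 2 probes stood on both sides of 0 in each of them. It read 0.46 and 0.48 in NOD.H2h4 (0.47 ± 0.12, adjusted p = 0.0161) and 0.77 and 0.24 in B6toNOD (0.51 ± 0.12, adjusted p = 0.00869), both below 0 without centring (-0.33 and -0.26). In the B6.NODIdd1,5 T cells it read -0.52 and -0.50 (-0.51 ± 0.12, adjusted p = 0.0142). In B6toNOD the probe means were -1.01 and 2.02, so the gene's mean describes neither. The calls were lost without either array of NOD.H2h4 (adjusted p at most 0.121), without either congenic T cell array (at most 0.0961) and without B6toNOD array 1 (at most 0.0717). Aifm2, also known as FSP1, a suppressor of ferroptosis, read -2.65 and -3.18 in NOD.H2h4 (-2.91 ± 0.77, 7.53-fold lower, adjusted p = 0.0195), from 1 probe, lost without either array (at most 0.158). Its other 10 arrays spread from -1.81 to 3.11, of which NODtoB6 read 3.11 and 0.31.

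FADD is the adaptor that recruits caspase 8 to death receptors. Fadd read 1.44 and 0.89 in B6toNOD (1.16 ± 0.18, 2.24-fold higher, adjusted p = 0.00113), in each of the 12 fits with 1 array left out, but 0.40 (adjusted p = 0.124) without centring. In NOD.H2h4 it read 0.61 and 0.61 (0.61 ± 0.18, adjusted p = 0.0299), which turned to -0.19 without centring and was lost without either NOD.H2h4 array (at most 0.168). The other groups were not called: 0.22 and 0.01 in NOD, 0.39 and 0.26 in the B6.NODIdd1,5 T cells, 0.10 and 0.08 in kidney, 0.45 and -0.24 in NODtoB6. Fadd was thus above the array median on 11 of 12 arrays (8 of the 8 strain arrays, and 9 of 12 with the transfers turned), and above 0 on 6 of 12 as deposited.

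TRAF proteins pass on signals of TNF receptor family members. Traf7, a ubiquitin ligase of the family that lies on chromosome 17, was above the array median on 12 of 12 arrays (8 of the 8 strain arrays, and 8 of 12 with the transfers turned), and above 0 on 5 as deposited. On the assumed direction B6toNOD was highest, at 1.49 and 1.53 (1.51 ± 0.07, 2.86-fold, adjusted p = 4.8e-06); it passed in each of the 12 fits with 1 array left out, and the 4 readings of its 2 probes lay between 1.44 and 1.56. NOD.H2h4 followed with 0.73 and 0.70 (0.72 ± 0.07, adjusted p = 0.000212) and kidney with 0.39 and 0.35 (0.37 ± 0.07, adjusted p = 0.00561), both of which turned to -0.09 without centring. The kidney call was lost without either kidney array (at most 0.0835). NOD (0.15 and 0.36), NODtoB6 (0.20 and 0.16) and the B6.NODIdd1,5 T cells (0.13 and 0.14) were not called.

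Traf1, which NF-kappaB induces and which binds cIAPs, was lower in NOD.H2h4 at -0.77 and -0.83 (-0.80 ± 0.08, 1.74-fold lower, adjusted p = 0.00218), in each of the 12 fits. NOD (-0.01 and -0.05) and NODtoB6 (-0.16 and -0.04) were not called. The other 3 groups have 1 value each and no test: 5.17 in the B6.NODIdd1,5 T cells, 0.97 in kidney and -1.99 in B6toNOD. Traf3ip2, the adaptor Act1 of the IL-17 receptor, read -1.60 and -0.56 in NOD.H2h4 (-1.08 ± 0.34, adjusted p = 0.0454), lost without 7 of the 12 arrays: NOD.H2h4 array 1 and those of NOD, the congenic T cells and kidney (at most 0.415).

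Traf3ip3, a lymphocyte protein encoded on chromosome 1, was lower in 3 groups and higher in 1. It read -0.88 and -1.26 in NOD.H2h4 (-1.07 ± 0.15, adjusted p = 0.00169), -0.94 and -0.91 in kidney (-0.92 ± 0.15, adjusted p = 0.00396) and -0.61 and -1.16 in NODtoB6 (-0.89 ± 0.15, adjusted p = 0.00747). In the B6.NODIdd1,5 T cells it read 0.52 and 0.45 (0.48 ± 0.15, adjusted p = 0.048). NOD read -0.31 on both arrays and was not called, and B6toNOD has 1 value, -2.16. The NOD.H2h4 call held without each array, the kidney call was lost without kidney array 1 (at most 0.0541), the NODtoB6 call without its array 2 (at most 0.0504) and the congenic T cell call without any of the 8 strain arrays (at most 0.23). It was also lost without centring (0.31, adjusted p = 0.17). Traf6, a ligase of Toll-like and IL-1 receptor signalling, and Traf3ip1, a protein of ciliary transport, were called in no group. Over only the probes with a value on every array, Traf3ip1 was called higher in NOD.H2h4 (0.20, adjusted p = 0.0189) and kidney (0.25, adjusted p = 0.00784). On that reading it was also higher in B6toNOD (0.77, adjusted p = 1.59e-05). Its difference between NODtoB6 and B6toNOD was then -0.70 (adjusted p = 0.000276). NOD (-0.04), the B6.NODIdd1,5 T cells (0.14) and NODtoB6 (0.07) were not called.

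Genes named for programmed cell death are a mixed set, since the name records how they were found. Pdcd4, which inhibits translation through the helicase eIF4A, was above the array median on 12 of 12 arrays (8 of the 8 strain arrays, and 8 of 12 with the transfers turned) and, as deposited, above 0 on 7. Kidney was highest, at 0.79 and 0.86 (0.83 ± 0.07, 1.77-fold, adjusted p = 0.000316). The B6.NODIdd1,5 T cells read 0.51 and 0.45 (0.48 ± 0.07, adjusted p = 0.0025), and NODtoB6 0.44 and 0.31 (0.37 ± 0.07, adjusted p = 0.0106). NOD.H2h4 read 0.39 and 0.37 (0.38 ± 0.07, adjusted p = 0.00534) and B6toNOD 0.35 and 0.33 (0.34 ± 0.07, adjusted p = 0.00619), which turned to -0.42 in both without centring. The other 3 calls were lost without centring, at 0.37 in kidney (adjusted p = 0.0695), 0.30 in the congenic T cells (adjusted p = 0.142) and 0.14 in NODtoB6 (adjusted p = 0.497), so the calls of Pdcd4 rest on centring. NOD, at 0.27 and 0.06, was not called. Both probe means were above 0 in all 6 groups. The kidney, congenic T cell and B6toNOD calls held without each array, and the others were lost without either NOD.H2h4 array (at most 0.0637) or NODtoB6 array 1 (at most 0.0801).

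Pdcd5, a nuclear protein that rises in dying cells, and Pdcd6, the calcium sensor ALG-2, were called in both transfers. Pdcd5 read -0.43 and -0.48 in NODtoB6 (-0.45 ± 0.08, adjusted p = 0.00556) and 0.25 and 0.32 in B6toNOD (0.29 ± 0.07, adjusted p = 0.0144). The latter turned to -0.47 without centring and to -0.10 with a running median along the probe order subtracted, and was lost without B6toNOD array 2 (at most 0.0902). With the running median subtracted, the NODtoB6 call was lost too (-0.15, adjusted p = 0.241). It was also lower in NOD.H2h4, at -0.45 and -0.67 (-0.56 ± 0.08, adjusted p = 0.000962). Pdcd6 read 0.95 and 0.80 in B6toNOD (0.87 ± 0.08, 1.83-fold higher, adjusted p = 7.78e-05), but 0.11 (adjusted p = 0.437) without centring. In NODtoB6 it read -0.18 and -0.37 (-0.27 ± 0.08, adjusted p = 0.04), lost without array 2 of that group or any of the 8 strain arrays (at most 0.306). Pdcd5-ps, a pseudogene of Pdcd5 whose probe may share sequence with it, was called in no group.

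Pdcd2l, which takes part in ribosome assembly and export, had the largest value of a Pdcd gene: -3.51 and -2.23 in NODtoB6 (-2.87 ± 0.25, 7.31-fold lower, adjusted p = 0.000367), in each of the 12 fits, from 1 probe. Its other 10 arrays lay between -0.79 and 0.34. Pdcd10, the CCM3 protein of blood vessel integrity, read 2.11 and 0.26 in kidney (1.19 ± 0.37, adjusted p = 0.0423). This rests on 1 of its 3 probes, at 6.64 and 1.21; with the median of the probes it was -0.15 (adjusted p = 0.315), and it was lost without 9 of the 12 arrays, all but kidney array 2 and the B6toNOD arrays (at most 0.504). Pdcd6ip, the ESCRT adaptor ALIX, was called in no group. Over probes with a value on all 12 arrays it was called higher in NODtoB6 (0.53, adjusted p = 0.039).

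**Figure D3:**
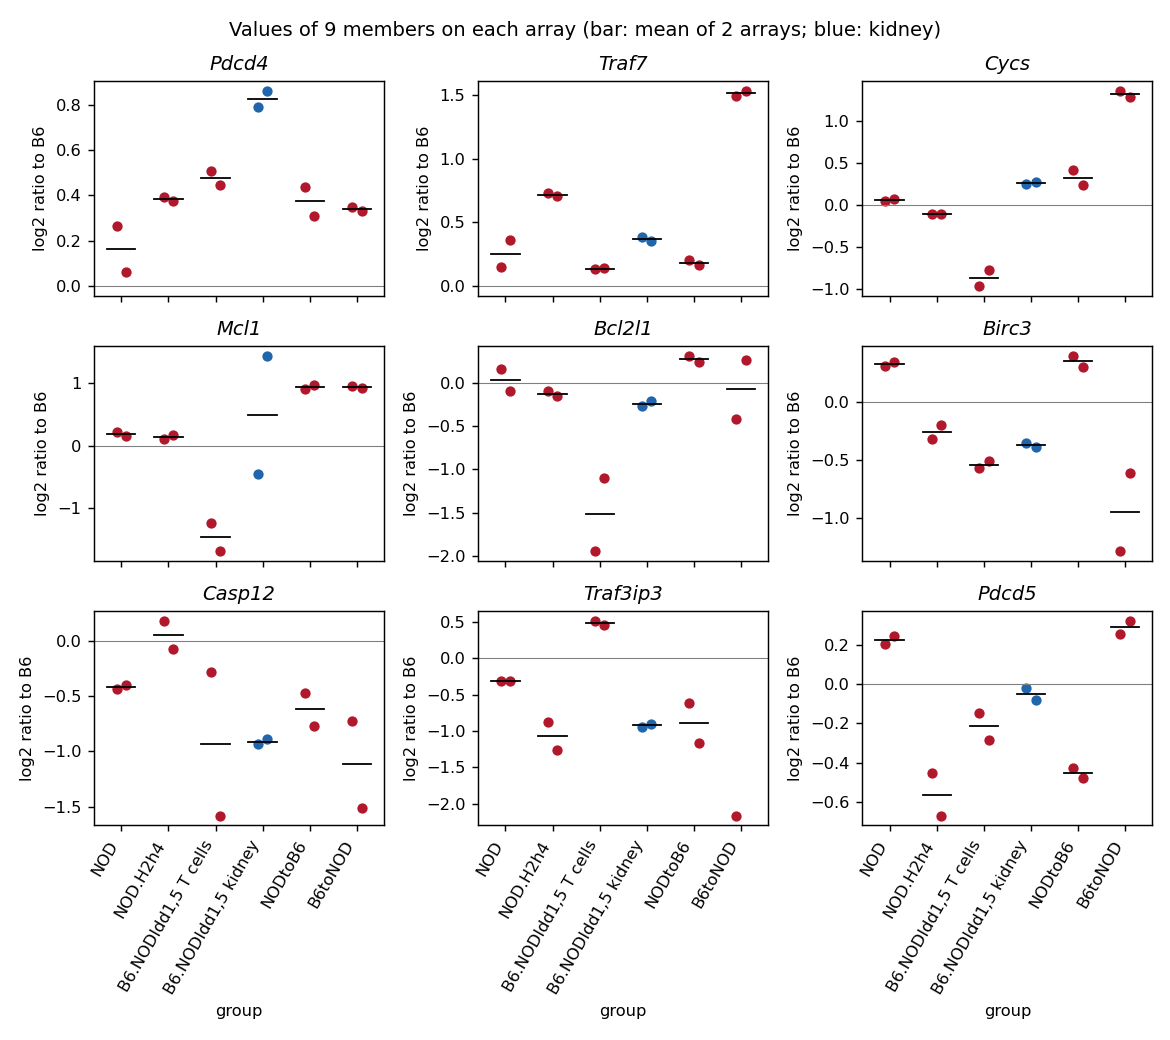
Centred log2 ratio to B6 (y axis, its range differs between panels) of 9 genes on each array of the 6 groups (x axis); dots are arrays, red for spleen T cells and blue for kidney, and bars are the mean of 2 arrays. Bcl2l1 and Cycs are lowest in the B6.NODIdd1,5 T cells, Traf7 and Cycs are highest in B6toNOD, and the kidney arrays of Mcl1 lie apart, at -0.45 and 1.45.

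NOD.H2h4 was set against NOD to compare strains that share the NOD background and differ in the MHC haplotype. In this difference 5 of 34 members were called (2 higher, 3 lower in NOD.H2h4), beside 18.7% of features (12.2% higher, 6.45% lower). The split was 0 and 8 without centring and 0 and 3 with scaled arrays. Over probes with a value on all 12 arrays, Bnip3l (-0.97, adjusted p = 0.00586) and Mcl1 (-0.72, adjusted p = 0.00311) were called lower as well. The values that follow average all probes. Pdcd5 was lower in NOD.H2h4 by a difference of -0.79 ± 0.11 (adjusted p = 0.00436), with NOD at 0.21 and 0.24, and this was the call that held without each array. Bnip1 (-1.99 ± 0.49, adjusted p = 0.0291) and Traf1 (-0.77 ± 0.11, adjusted p = 0.0172) were lower, both lost without any of the 4 arrays compared (at most 0.15 and 0.102). Bnipl (0.47 ± 0.10, adjusted p = 0.016) and Traf7 (0.46 ± 0.10, adjusted p = 0.0182) were higher, and turned to -0.18 and -0.19 without centring. Bnipl was lost without either NOD.H2h4 array or NOD array 2 (at most 0.0915), and Traf7 without either NOD.H2h4 array or NOD array 1 (at most 0.0953). The count of calls was 2 without NOD array 1 or 2 or NOD.H2h4 array 1, and 1 without NOD.H2h4 array 2.

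T cells and kidney of the congenic mice were compared in the same way, each over its own B6 tissue. Here 8 of 31 members were called (1 higher, 7 lower in T cells), beside 21.9% of features (7.17% higher, 14.8% lower), and 1 and 1 without centring. Cycs was lower in T cells than in kidney by a difference of -1.13 ± 0.11 (adjusted p = 0.000444), and Traf3ip3 was higher by 1.41 ± 0.21 (adjusted p = 0.00454); both held without each array. Bcl2l1 (-1.28 ± 0.30, adjusted p = 0.0208) and Mcl1 (-1.96 ± 0.51, adjusted p = 0.0321) were lower in T cells. For Mcl1 the kidney arrays disagree; over probes measured on all arrays its difference was -0.69 (adjusted p = 0.00261). Bcl2l1 was lost without T cell array 1 or either kidney array (at most 0.103), and Mcl1 without either T cell array or any NOD or NOD.H2h4 array (at most 0.123). Aifm1 (-0.64), Bnipl (-0.36), Pdcd10 (-1.75) and Pdcd4 (-0.35) were lower too, with adjusted p from 0.0302 to 0.0497, and each was lost without at least 5 of the 12 arrays, kidney array 1 and T cell array 2 among them. The count of calls was 3 without either NOD.H2h4 array, T cell array 1 or kidney array 1, and 4 without T cell array 2 or kidney array 2.

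The reciprocal transfers gave the most called differences. NODtoB6 minus B6toNOD had 11 of 30 members called (3 higher, 8 lower in NODtoB6), beside 37% of features (14.3% higher, 22.7% lower), and 7 higher and 3 lower without centring. Among called members the largest in each direction were -2.18 ± 0.35 for Pdcd2l (adjusted p = 0.00244) and 2.13 ± 0.66 for Bnip3l (adjusted p = 0.0398), the latter only 0.31 (adjusted p = 0.158) over probes measured on all arrays. Traf7 (-1.33 ± 0.09, adjusted p = 8.97e-05), Pdcd6 (-1.15 ± 0.11, adjusted p = 0.000232) and Cycs (-0.997 ± 0.10, adjusted p = 0.000337) were lower in NODtoB6. Birc3 was higher in NODtoB6 by 1.30 ± 0.20 (adjusted p = 0.00168), and so was Casp6, by 1.85 ± 0.52 (adjusted p = 0.0276).

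Fadd (-1.06 ± 0.25, adjusted p = 0.0133), Pdcd5 (-0.74 ± 0.11, adjusted p = 0.00128, but -0.21 with adjusted p = 0.309 without centring and -0.05 with adjusted p = 0.781 with the running median), Aifm1 (-0.55 ± 0.17, adjusted p = 0.0337) and Bnipl (-0.47 ± 0.09, adjusted p = 0.00625, but 0.06 without centring) were lower in NODtoB6. The 2 probes of Aifm1 opposed each other. Of these, 1 read -0.65 and -0.36 in NODtoB6 and 2.04 and 2.01 in B6toNOD. The other read 0.349 and 0.465 in NODtoB6 and -0.505 and -1.52 in B6toNOD. Pdcd2l, Traf7, Pdcd6, Cycs, Birc3, Pdcd5 and Bnipl passed without each of the 12 arrays. Casp6 was lost without either NODtoB6 array (at most 0.114) and Fadd without NODtoB6 array 2 or B6toNOD array 1 (at most 0.0603). Aifm1 was lost without 9 arrays, those of NOD, NOD.H2h4, kidney and NODtoB6 and B6toNOD array 1 (at most 0.143), and Bnip3l without 10, all but the NODtoB6 arrays (at most 0.108). The same transfers differed in their other cells: S100a9 was at 3.05 in NODtoB6 and 6.68 in B6toNOD, Lyz2 at 2.57 and 3.57, and Hbb-bh1 at 3.10 and 0.51. The part of these cells in the differences was not tested.

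**Figure D4:**
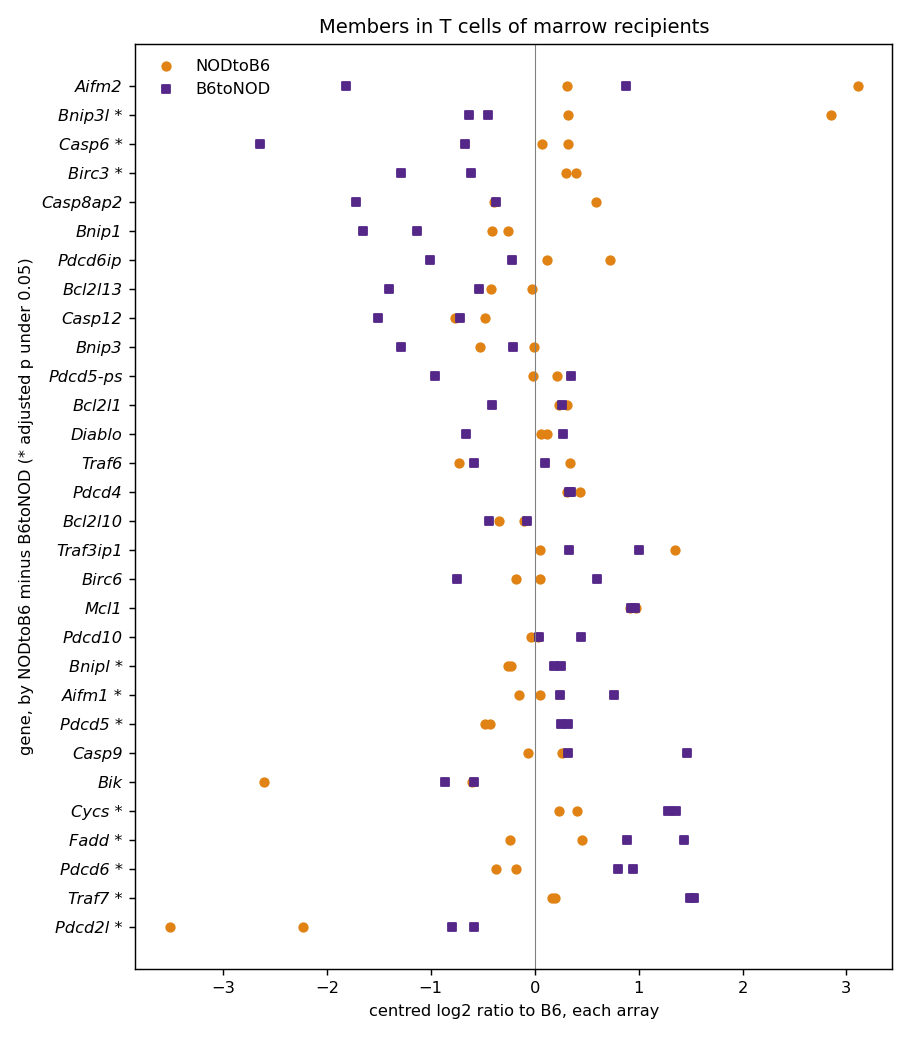
Centred log2 ratio to B6 (x axis) of each array of NODtoB6 (orange circles) and B6toNOD (purple squares) for the 30 members tested, ordered by the difference (y axis); an asterisk marks an adjusted p under 0.05. Traf7, Cycs, Pdcd6 and Fadd lie to the right in B6toNOD, and Pdcd2l lies far to the left in NODtoB6, at -3.51 and -2.23.

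Of the other genes of these pathways, 28 of 51 listed were on the array, chosen for their role. In NOD 5 were higher and 0 lower, where 12.4% of all features were called, and in NOD.H2h4 6 and 3 (39.7%). In the B6.NODIdd1,5 T cells 1 was higher and 4 lower (30.9%), in kidney 3 and 3 (33.9%), in NODtoB6 4 and 3 (27.4%), and in B6toNOD, of 26 tested, 9 and 3 (51.9%). Nfkbia, the inhibitor of NF-kappaB and itself a target of it, was lowest in the B6.NODIdd1,5 T cells (-2.17 ± 0.07, adjusted p = 4.73e-06) and higher in NOD.H2h4 (1.54 ± 0.08, adjusted p = 4.02e-05). Map3k14, the kinase NIK of the alternative NF-kappaB route, was lower in 5 groups: -1.40 ± 0.10 in the B6.NODIdd1,5 T cells (adjusted p = 6.85e-05), -1.02 in kidney, -0.97 in NODtoB6, -0.81 in B6toNOD and -0.61 in NOD.H2h4. Tank, which binds TRAF proteins, split the transfers, at -1.74 in NODtoB6 and 1.28 in B6toNOD. Pycard, the inflammasome adaptor ASC (1.58), and Perp, a p53 target (1.89), were higher in B6toNOD, where Dapk1, the death-associated kinase, was lower (-2.28 ± 0.43, adjusted p = 0.00345).

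How far the probes of a gene go together bears on how each call can be read. Of the 54 calls against B6, 29 were of genes with several probes in that group. In 23 of these the probe means lay on one side of 0, and in 6 on both: Aifm1 in 3 groups, Casp8ap2 in the B6.NODIdd1,5 T cells, Casp9 in B6toNOD and Pdcd10 in kidney. Means on one side can still be far apart. They were 0.004 and 3.22 for Bcl2l13 in kidney and -0.14 and -4.09 for Bnip1 in NOD.H2h4. For Bnip3l they were -0.09 and -3.66 in kidney and 0.36 and 5.30 in NODtoB6. Over the 9 comparisons, 30 of 78 calls passed without each of the 12 arrays in turn. With limma fitted to only the arrays compared, 10 of these 30 were kept, and the calls of Bcl2l1 in the B6.NODIdd1,5 T cells (adjusted p = 0.145) and of Traf7 (0.0974) and Cycs (0.0974) in B6toNOD were among the 20 lost.

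The scale of the arrays ended further calls without turning their sign. Without centring, 22 calls were lost in addition to those that turned: Bcl2l10, Casp8ap2, Pdcd4 and Traf3ip3 in the congenic T cells, Pdcd10 and Pdcd4 in kidney, Bnip3l, Cycs and Pdcd4 in NODtoB6, and Casp9, Fadd and Pdcd6 in B6toNOD. The others were Aifm1, Bcl2l1, Bnipl, Mcl1, Pdcd10 and Pdcd4 between the congenic tissues and Aifm1, Cycs, Fadd and Pdcd5 between the transfers. Scaling the arrays to one spread ended 20 calls: Bcl2l10, Fadd, Pdcd4 and Traf3ip2 in NOD.H2h4, Casp12 in kidney, and Bnip1, Bnipl, Casp12, Casp8ap2, Casp9, Pdcd4 and Pdcd5 in B6toNOD. It also ended those of Bnip1, Bnipl and Traf7 between NOD.H2h4 and NOD, Bnipl and Pdcd4 between the congenic tissues, and Aifm1, Bnip3l and Fadd between the transfers. Subtracting a running median along the probe order ended 19: Aifm1, Aifm2, Bcl2l10, Fadd and Traf3ip2 in NOD.H2h4, Casp12 and Traf3ip3 in the congenic T cells, Casp12 and Cycs in kidney, Pdcd5 and Pdcd6 in NODtoB6 and Bnipl in B6toNOD. The remaining 7 were Traf7 between NOD.H2h4 and NOD, Bnipl, Pdcd10 and Pdcd4 between the congenic tissues, and Aifm1, Casp6 and Pdcd5 between the transfers.

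**Figure D5:**
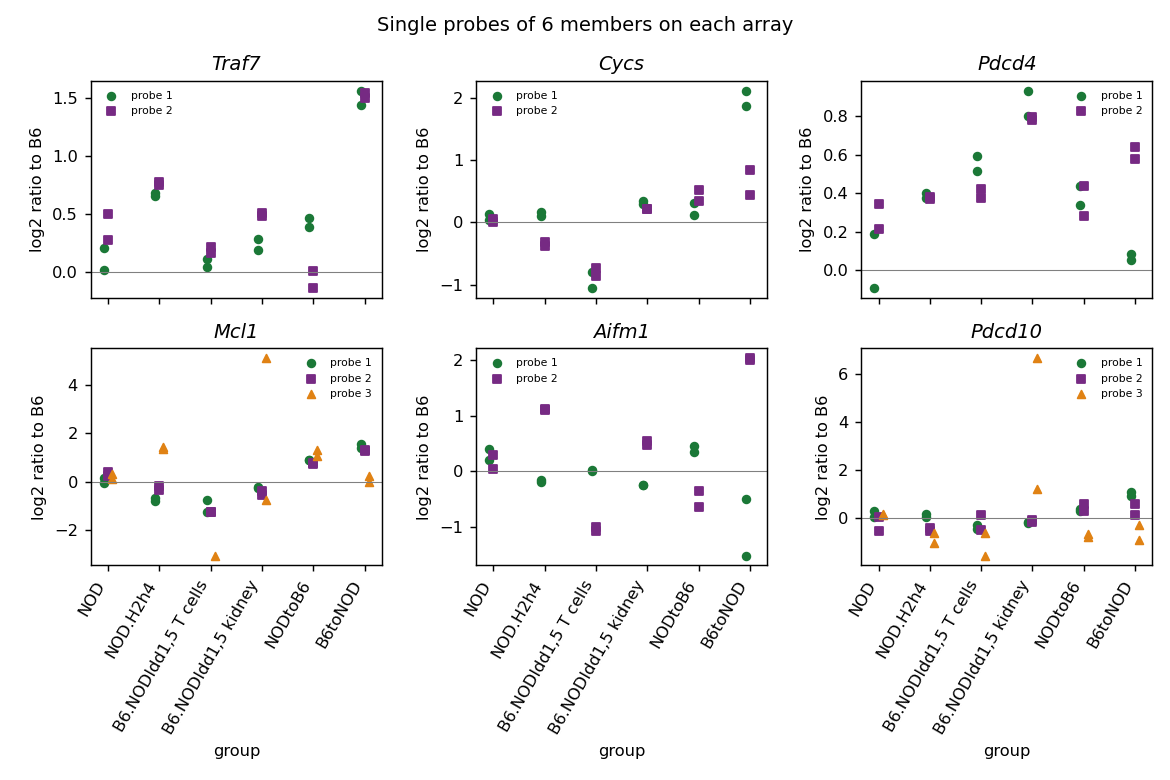
Centred log2 ratio to B6 (y axis, its range differs between panels) of the single probes of 6 genes on each array of the 6 groups (x axis), with a marker per probe. The 4 readings of Traf7 in B6toNOD lie between 1.44 and 1.56, those of the 2 Cycs probes lie apart there, the 2 probes of Aifm1 oppose each other in B6toNOD, and single readings of 5.09 (Mcl1, kidney array 2) and 6.64 (Pdcd10, kidney array 1) stand far from the other probes.

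Members on the chromosomes that hold the congenic intervals were Pdcd5-ps, Traf3ip1 and Traf3ip3 on chromosome 1 and Birc6, Bnip1 and Traf7 on chromosome 17. Whether any of them lies inside Idd5 or Idd1 is not settled by the sources used here. In the B6.NODIdd1,5 T cells Traf3ip3 alone of these 6 was called (higher, 0.48), and in kidney Traf3ip3 (lower, -0.92) and Traf7 (higher, 0.37, -0.09 without centring). The genes that were lower in the congenic T cells lie on other chromosomes: Bcl2l1 on 2, Mcl1 on 3, Cycs on 6, Bnip3 on 7, Birc3 and Casp12 on 9 and Aifm1 on X.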

How the data were processed

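Deposited were log2 ratios of each mouse group to B6 for every probe, per the labels; which tools, background correction or normalisation came before is not stated in the sources used here. Intensities are not analysed here, so dim spots cannot be told from bright ones. Values equal to the log2 of 100000 (146, none in members) were taken as missing. Probes of a gene were averaged on each array, symbols came from the platform's annotation, 12850 of 13033 single-symbol probes were matched to RefSeq, and arrays were centred on the median of 16411 features. Group means over 12 arrays were fitted with limma 3.58.1 (R 4.3.3; lmFit, eBayes; 6 residual and 1.4 prior degrees of freedom), with Benjamini-Hochberg adjustment over the features that had a value on every array compared. The test of a ratio against 0 leaves out the spread of B6 and any dye bias of a gene, and the 6 ratios share B6 as control. P-values cover only the spread between the arrays, which may be technical, and the number of arrays limits precision. Values for each array were given for the members called against B6 and for set anchor genes. The members and lists were chosen with earlier results of these data known. The script was tested on simulated data.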

Additional observations from a re-analysis of the deposited data

Results flagged for a closer look

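Effects of 24 member and group pairs differed between groups by the test of the difference itself (limma, adjusted p under 0.05), and no array was set apart within a group, since groups of 2 arrays allow no such check. Between NOD.H2h4 and NOD these were Bnip1 (-1.99), Pdcd5 (-0.79), Traf1 (-0.77), Bnipl (0.47) and Traf7 (0.46). Between T cells and kidney of the B6.NODIdd1,5 mice they were Mcl1 (-1.96), Pdcd10 (-1.75), Bcl2l1 (-1.28), Cycs (-1.13), Aifm1 (-0.64), Bnipl (-0.36), Pdcd4 (-0.35) and Traf3ip3 (1.41).

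Between NODtoB6 and B6toNOD they were Pdcd2l (-2.18), Traf7 (-1.33), Pdcd6 (-1.15), Fadd (-1.06), Cycs (-0.997), Pdcd5 (-0.74), Aifm1 (-0.55), Bnipl (-0.47), Birc3 (1.30), Casp6 (1.85) and Bnip3l (2.13). Those of Bnip3l, Pdcd10 and Mcl1 rest in part on a probe that stands far from the gene's other probes on single arrays. For Aifm1 the 2 probes differed in opposite directions, both between the congenic tissues and between the transfers. Without centring, Bnipl and Traf7 turned to -0.18 and -0.19 between NOD.H2h4 and NOD, and Bnipl to 0.06 between the transfers.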

How the results depend on the processing

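Counts of called members moved by more than 1.5 times as follows, without the share of all features under the same setting beside them. As deposited, 21 were called in NOD.H2h4, 22 in B6toNOD, 8 between NOD.H2h4 and NOD and 2 between the congenic tissues. With arrays scaled to one spread, the counts were 8 in NOD, 7 in B6toNOD and 3 between NOD.H2h4 and NOD, and with a running median subtracted 7 in NOD.H2h4 and 5 between the congenic tissues. The count in NOD was 1 over features with a value on all 12 arrays, that between NOD.H2h4 and NOD was 8 with the median of the probes, and that between the congenic tissues was 5 over probes with a value on all 12 arrays, an alternative added after seeing the data. With limma fitted to the arrays compared alone, where few degrees of freedom are left, the counts were 4 in NOD, 16 in kidney and 10 between NOD.H2h4 and NOD. They were then 0 in the congenic T cells (13 at an unadjusted p under 0.05), in NODtoB6 (5), in B6toNOD (9) and between the transfers (8); no other tool was run. Leaving out 1 array gave 0 to 2 calls in NOD, 7 to 14 in NOD.H2h4, 5 to 15 in the congenic T cells, 3 to 10 in kidney, 5 to 9 in NODtoB6, 12 to 17 in B6toNOD, 1 to 7 between NOD.H2h4 and NOD, 3 to 10 between the congenic tissues and 9 to 13 between the transfers. Signs turned without centring for Aifm1 (-0.33), Bnipl (-0.13), Fadd (-0.19), Pdcd4 (-0.42) and Traf7 (-0.086) in NOD.H2h4, Bnipl (-0.029), Cycs (-0.19) and Traf7 (-0.090) in kidney, Aifm1 (-0.26), Bnipl (-0.54), Pdcd4 (-0.42) and Pdcd5 (-0.47) in B6toNOD, Bnipl (-0.18) and Traf7 (-0.19) between NOD.H2h4 and NOD, and Bnipl (0.062) between the transfers. They also turned for Pdcd10 in kidney with the median of the probes (-0.15), for Pdcd5 in B6toNOD with the running median (-0.10), and for Casp8ap2 in the congenic T cells over probes with a value on all arrays (-0.44). Apart from the choice of probes, the cause was not tested. Of the 78 calls, 25 were kept with only the arrays compared (10 of the 30 that passed without each array; Bcl2l1 in the congenic T cells and Traf7 in B6toNOD were lost, at adjusted p = 0.145 and 0.0974), 41 as deposited, 58 with scaled arrays, 58 with the running median, 59 of 68 with complete probes, 77 with no filter on missing values, 77 with ratios of 100000 as values and 76 with the median of the probes, and 69 of 69 with a value on all 12 arrays. The replicate numbers did not pair the arrays (correlations of deviations from -0.036 to 0.022). With the number as a replicate block 75 of 78 calls were kept, with Bcl2l10 and Traf3ip2 in NOD.H2h4 and Pdcd4 between the congenic tissues lost, and 11 members were called in the congenic T cells, 9 in kidney and 15 in B6toNOD.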
